A study of Rattus norvegicus with 18 samples.

Results

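The genes described are those for the proteins of the mitochondrial ribosome (mitoribosome) in the nucleus pulposus of ageing rats. They were chosen by name, as every row of the gene table whose symbol starts with Mrpl (large subunit) or Mrps (small subunit) followed by a number, with at least 1 FPKM in at least 3 of the 9 libraries. FPKM counts sequenced fragments relative to transcript length and to library size. Of 18923 genes in the table, 75 matched the name, and 74 of these passed the minimum, 45 of the large and 29 of the small subunit, among 11708 genes that passed in all. The 1 that did not was Mrps21l, which stood at 0.324 FPKM in 1 library of 10 months and at 0 in the other 8. The rule used no change with age.

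The mitoribosome sits in the mitochondrial matrix and translates the small set of proteins that the mitochondrial DNA encodes, all of them membrane subunits of the respiratory chain and of the ATP synthase. All of its proteins are encoded in the nucleus, made in the cytosol and imported, and they assemble on ribosomal RNA that comes from the mitochondrial DNA. Part of them have a counterpart in bacterial ribosomes and the rest were added in the course of mitochondrial evolution. The nucleus pulposus, the soft centre of the disc between vertebrae, has no blood vessels of its own, and its cells are known for their reliance on glycolysis.

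The start regions of these genes are shown first, since some of them share letters that are less frequent in the start regions of other genes. RefSeq (assembly GRCr8) gave a window of 300 bases, 250 before and 50 after the start, for 59 of the 74 genes. The letters CCGGAAG, the core bound by ETS factors such as GABP, were found on either strand in 20 of 59 genes (33.9%), against 8.75% of all 33469 windows and 10.7% of the 21851 windows of protein-coding genes. AAGATGGC, the core bound by YY1, was found in 15 genes (25.4%, against 3.17% and 3.67%). The palindrome bound by NRF1, GCGCA followed directly by its reverse complement TGCGC, was found in 4 genes (6.78%, against 0.852% and 1.08%). At least 1 of these 3 stood in 31 of the 59 genes (52.5%), against 12.0% of all windows and 14.5% of the protein-coding ones. Nearer to the background were CCAAT in 27 genes (45.8%, against 37.5% and 38.0%), TATAAA in 8 (13.6%, against 14.2% and 13.0%) and CACGTG in 5 (8.47%, against 6.42% and 7.02%). GCATGCGC lies within the NRF1 palindrome, so that it matches wherever the palindrome does, and was found in 5 genes (8.47%, against 2.47% and 3.11%). In the 93 genes of the nuclear respiratory chain with a window, the same search found CCGGAAG in 21 (22.6%), AAGATGGC in 16 (17.2%) and the NRF1 palindrome in 4 (4.3%). In 207 genes named as cytosolic ribosomal, it found CCGGAAG in 29 (14.0%), AAGATGGC in 21 (10.1%) and the palindrome in none. These 7 motifs were chosen after values of the data were known. The windows were not matched on base composition or on expression, although the members had passed the FPKM minimum. A match is a description of the letters, not a bound site.

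Of the 15 matches to the YY1 letters, 11 (73.3%) began in the first 50 transcribed bases and 13 (86.7%) ran in the direction of the gene, against 46.7% and 68.5% of the 818 matches in the windows of all protein-coding genes. The difference was not tested, and the motif holds an ATG triplet. The segments below are the matches in the 10 genes that were called higher or lower at 20 than at 2 months (the test is given below), each 30 bases long, read 5′ to 3′ on the gene's strand, with the motif or its reverse complement in capitals. The first 7 genes fell and the last 3 rose in the deposited values, and of the 7 Mrpl37, Mrpl50 and Mrps27 were not called after median-of-ratios scaling, an alternative described below.
Mrpl36: cgtgaccctacGCCATCTTtctttctggcg
Mrpl37: ctgcccgggcaAAGATGGCggcgtccaggt
Mrpl42: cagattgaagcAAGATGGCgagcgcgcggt
Mrpl49: ttggaggagcaAAGATGGCagcaaatgtat
Mrpl50: ggagcttgtcgAAGATGGCggcgctgtgtg
Mrps27: tggtacgctccAAGATGGCggcccccatgg
Mrps6: aagattccatcAAGATGGCagccaagaccc
Mrpl48: actcggtaacaAAGATGGCaactaatactg
Mrps18b: ggatgtgcgacAAGATGGCtgcctccttgc
Mrps30: cgcggaggacaAAGATGGCggctgccaggt
In Mrpl42 the match began 20 bases into the transcript, in Mrpl49 17 and in Mrps30 19, each counted from 1 at the start. By the calls at 20 against 2 months, the letters stood in 3 of the 15 risers with a window, 7 of the 18 fallers and 5 of the 26 genes that were not called. By the calls after scaling they stood in 4 of 23 risers, 4 of 10 fallers and 7 of 26 others.

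The NRF1 palindrome stood in 3 of the 15 risers, in none of the 18 fallers and in 1 of the 26 others, and after scaling in 3 of 23, none of 10 and 1 of 26. The 2 risers with it among the windows extracted for printing (the largest risers and fallers that had 1 window starting at the gene's edge) are set here beside 2 fallers, as the 250 bases before the start, 5′ to 3′ on the gene's strand, with the NRF1 palindrome, CCGGAAG, AAGATGGC and CCAAT in capitals where they occur on either strand. Mrpl44 lies at chr9:88554800-88555049, plus strand, Mrpl17 at chr1:169575700-169575949, minus strand, Mrpl34 at chr16:18186197-18186446, plus strand, and Mrpl41 at chr3:28179756-28180005, minus strand, all in GRCr8.
Mrpl44: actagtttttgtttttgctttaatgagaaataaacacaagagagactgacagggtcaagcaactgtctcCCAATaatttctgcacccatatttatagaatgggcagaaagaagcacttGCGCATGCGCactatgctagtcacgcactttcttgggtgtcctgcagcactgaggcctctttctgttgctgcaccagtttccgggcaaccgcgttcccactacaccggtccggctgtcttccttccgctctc
Mrpl17: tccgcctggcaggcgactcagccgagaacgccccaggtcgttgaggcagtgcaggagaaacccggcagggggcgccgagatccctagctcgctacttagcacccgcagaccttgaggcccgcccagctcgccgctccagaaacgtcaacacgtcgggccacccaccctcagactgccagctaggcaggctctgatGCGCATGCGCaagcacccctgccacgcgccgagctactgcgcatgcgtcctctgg
Mrpl34: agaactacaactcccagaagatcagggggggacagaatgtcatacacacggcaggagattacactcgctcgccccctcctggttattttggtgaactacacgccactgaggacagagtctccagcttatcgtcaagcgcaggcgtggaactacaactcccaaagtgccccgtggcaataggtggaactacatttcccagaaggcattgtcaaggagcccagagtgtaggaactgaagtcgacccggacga
Mrpl41: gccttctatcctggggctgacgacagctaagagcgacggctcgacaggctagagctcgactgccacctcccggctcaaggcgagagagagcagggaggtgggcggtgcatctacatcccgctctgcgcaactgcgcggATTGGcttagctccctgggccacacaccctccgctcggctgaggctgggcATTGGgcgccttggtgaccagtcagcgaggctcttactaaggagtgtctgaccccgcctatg
The palindrome began at -132 in Mrpl44 and at -55 in Mrpl17, where -1 is the last base before the start. In Mrpl41 the reverse complement of CCAAT stood at -112 and at -62, and none of the 4 motifs was in the 250 bases of Mrpl34. The riser Mrps9 and the faller Mrpl51 were also extracted but are not shown. Neither held the palindrome, and of the 4 motifs each held only CCAAT, at -112 in Mrps9 and at -58 in Mrpl51. The windows shown were thus picked for the palindrome among the risers. Some members also start near a neighbour on the other strand, at distances of 44 (Mrpl27) to 996 bases (Mrpl41). In 17 of 59 genes (28.8%, against 10.5% of 21851 windows of protein-coding genes) another gene started on the other strand within 1000 bases upstream. By their starts in GRCr8, Mrpl46 and Mrps11 are such neighbours of each other, 234 bases apart. Mrpl49 lies 186 bases from Fau, which encodes a cytosolic ribosomal protein, and Mrpl47 lies 244 bases from Ndufb5, a subunit of respiratory complex I.

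The series compared the nucleus pulposus of rats of 2, 10 and 20 months of age, to relate RNA methylation (m6A) and gene expression in the disc to age. Strain, sex and treatment are not in the labels. The RNA came from a TRIzol extraction followed by selection of poly(A) transcripts, and the 9 libraries used here, 3 at each age, are the inputs without immunoprecipitation, which measure RNA abundance. The antibody libraries are not analysed here. No label states that the 3 libraries of an age are from different rats. The p-values therefore reflect just the spread among these libraries, which may be technical. In bulk tissue, fewer cells of a type and less RNA per cell cannot be told apart.

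With depth worked out from FPKM and coverage together, the 2-month libraries held 4.767 to 5.044 aligned gigabases, the 10-month ones 4.346 to 4.741 and the 20-month ones 3.529 to 4.902, and replicates of an age correlated across genes with a Pearson's r of 0.984 to 0.993. Read length was not taken from a label but inferred from coverage times isoform length. The commonest value was 132 bases at 2 and 10 months and 141 at 20 months. This apparent technical difference and the age of 20 months cannot be told apart. At the 3 ages in turn cytosolic ribosomal protein genes took 12.96%, 15.26% and 19.44% of all FPKM. Median-of-ratios scaling, which sets the typical gene equal between libraries, raised the median gene's log2 change by 0.19 at 20 against 2 months and by 0.22 at 20 against 10 months, and most counts below are given in both versions. The minimum was passed by 10 of the 12 nucleus pulposus markers found, with summed levels of 32230 to 33610 FPKM (2 months), 27570 to 27860 FPKM (10 months) and 27830 to 29140 FPKM (20 months), while Shh and Foxf1 were below 1 FPKM. None of 4 endothelial markers passed. Red blood cell markers summed to 82.87 to 93.23, 9.571 to 10.62 and 36.59 to 42.53 FPKM, and skeletal muscle markers to at most 30.85 FPKM except for 251.5 in 20-month replicate 3. Annulus and fibroblast markers summed to 15.96 to 18.85 FPKM up to 10 months and to 24.09 to 92 at 20 months, the highest again in replicate 3. Adipocyte markers, with only Lpl above the minimum, summed to 120.7 to 125.4, 81.2 to 83.63 and 38.61 to 45.74 FPKM. Bone and osteoclast markers summed to 16.3 to 17.09, 10.07 to 11.26 and 5.129 to 6.949 FPKM. Only 2 of these 6, Acp5 and Ctsk, passed the minimum, while Bglap, Ibsp, Sp7 and Mmp9 were below 1 FPKM in every library. The part of any of these marker sets in the results was not tested.

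The mitoribosomal genes were expressed at a moderate level in every library. Their mean FPKM over the 9 libraries had a median of 13.26 in the large and 10.5 in the small subunit, and 54 of 74 lay above 8.825, the median of all genes tested. Mrpl17, whose bacterial counterpart lies beside the exit of the peptide tunnel, was the highest, with 86.01, 87.5 and 82.9 FPKM in the 2-month libraries, 89.8, 93.4 and 96.5 in the 10-month ones and 110.7, 111.6 and 99.5 in the 20-month ones. Next came Mrpl33 at 51.5, Mrpl52 at 49.8 and Mrpl13 at 44.9 FPKM on average. The highest of the small subunit was Mrps21, with 32.9, 32.2 and 33.3 FPKM in the 2-month libraries, 31.3, 31.8 and 33.1 in the 10-month ones and 39.8, 35.3 and 31.0 in the 20-month ones. The 3 libraries of Mrps21 overlapped between all ages, though it was called higher after scaling at 20 against 2 months (log2 change 0.31, limma adjusted p = 0.0041). The lowest were Mrps10, at 2.02 FPKM on average, and Mrpl1, at 2.70. The means thus spanned a wide range although the proteins, as known from the structure of the mitoribosome, are present in 1 copy each apart from the stalk protein Mrpl12. Mean coverage of the main isoform was 390.4 to 489.6 reads per base over the 9 libraries for Mrpl17 and 5.734 to 12.95 for Mrps10, so that the low genes rest on far fewer reads. RefSeq names 31 pseudogenes of 22 members, Mrpl17 and Mrps21 among them, and their values are uncertain wherever reads were split between copies.

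At 20 against 2 months about as many of the genes rose as fell, and none of the changes was large. The test was limma's moderated test on log2(FPKM + 1), in 1 fit over the 9 libraries, with Benjamini-Hochberg adjustment over the 11708 genes, and a gene was called at an adjusted p under 0.05. All adjusted p-values are of this kind, and every log2 change includes the added 1 FPKM, so that the change of genes with a low level is understated. Of the 74 members 19 rose and 20 fell (52.7%), against 68.2% of all genes tested, with 18.6% up and 49.6% down. In the large subunit 7 rose and 13 fell of 45, with a median log2 change of -0.07, and in the small subunit 12 rose and 7 fell of 29, with a median of -0.01, beside -0.20 over all genes. After median-of-ratios scaling 32 members rose and 10 fell, against 30.4% and 32.2% of all genes (62.6% in all). For 41 of 74 members no library of 1 age reached the range of the other, against 70.4% of all genes. Without 20-month replicate 3, the library with the muscle transcripts, 20 members rose and 19 fell. Neither the difference between members and all genes, which was smaller after scaling (56.8% against 62.6% called), nor that between subunits was tested.

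**Figure D1:**
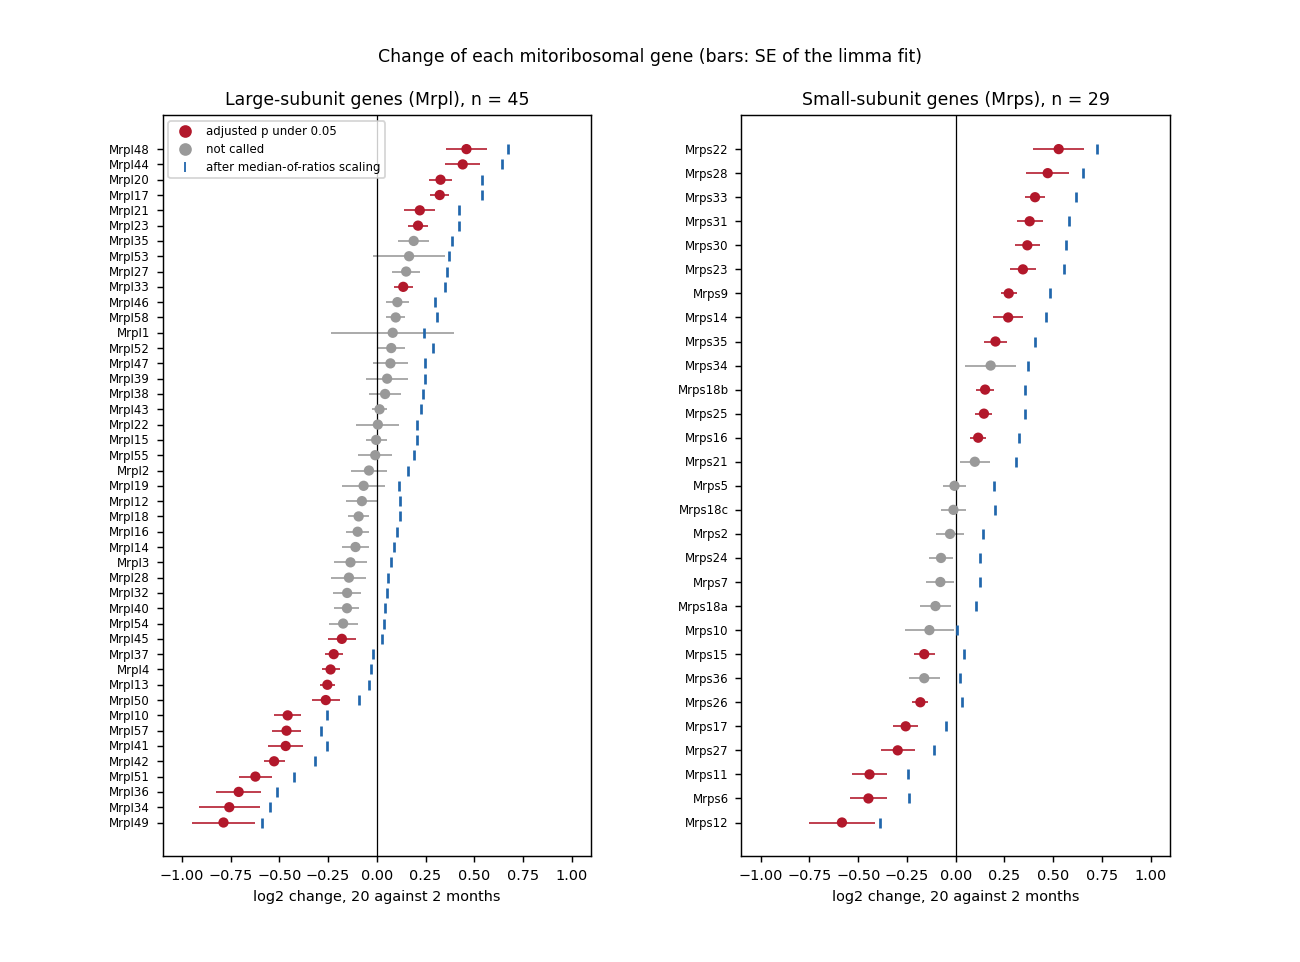
Log2 change of every mitoribosomal gene at 20 against 2 months (x axis), large subunit on the left and small on the right, ordered by change; points are FPKM as deposited with the SE of the fit, red where the adjusted p was under 0.05, and blue ticks are the change after median-of-ratios scaling. The points run from -0.79 (Mrpl49) to 0.53 (Mrps22), and the ticks lie to the right of the points throughout.

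Called in the same direction with and without that scaling were 19 risers and 10 fallers. Of all genes 68.2% were called as deposited and 62.6% after scaling. How many were called under both was not counted, so these numbers have no background. The risers were Mrpl17, Mrpl20, Mrpl21, Mrpl23, Mrpl33, Mrpl44, Mrpl48, Mrps9, Mrps14, Mrps16, Mrps18b, Mrps22, Mrps23, Mrps25, Mrps28, Mrps30, Mrps31, Mrps33 and Mrps35. The fallers were Mrpl10, Mrpl34, Mrpl36, Mrpl41, Mrpl42, Mrpl49, Mrpl51, Mrpl57, Mrps6 and Mrps11. The remaining 10 of the 20 fallers, which were Mrpl4, Mrpl13, Mrpl37, Mrpl45, Mrpl50, Mrps12, Mrps15, Mrps17, Mrps26 and Mrps27, were not called after scaling.

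Among the large-subunit risers, Mrpl48, a protein of the central protuberance, stood at 23.05, 20.1 and 21.3 FPKM in the 2-month libraries, 24.7, 25.97 and 24.2 in the 10-month ones and 24.6, 34.1 and 31.9 in the 20-month ones. All 20-month libraries lay above all 2-month ones, while 20-month replicate 1 fell within the range of the 10-month libraries. Its log2 change at 20 against 2 months was 0.46 ± 0.11 (SE), adjusted p = 0.0039. Mrpl44, which has an RNase III-like fold, stood at 8.75, 9.21 and 10.3 FPKM in the 2-month libraries, 10.4, 10.9 and 9.52 in the 10-month ones and 13.8, 11.4 and 14.3 in the 20-month ones (gene at chr9:85542702-85548144, plus strand, in the coordinates of the deposited table). The 20-month libraries were the 3 highest of the 9. Its change was 0.44 ± 0.09 (SE), adjusted p = 0.0022, and the mean was 1.40 times that at 2 months. Mrpl20, the counterpart of a bacterial protein that binds the large ribosomal RNA early in assembly, stood at 21.1, 23.6 and 22.7 FPKM in the 2-month libraries, 25.9, 23.7 and 25.4 in the 10-month ones and 27.5, 30.2 and 27.5 in the 20-month ones. The ages formed a rising order without overlap, the lowest 10-month library lying just above the highest at 2 months. The change was 0.33 ± 0.06 (SE), adjusted p = 0.00082.

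The largest falls of the family were in the large subunit. Mrpl49, a protein without a bacterial counterpart, stood at 15.6, 15.9 and 16.4 FPKM in the 2-month libraries, 11.3, 17.1 and 14.3 in the 10-month ones and 8.47, 11.3 and 7.16 in the 20-month ones (gene at chr1:221417336-221420115, minus strand). The 20-month libraries were the lowest, although the highest of them came close to the lowest 10-month library. The change at 20 against 2 months was -0.79 ± 0.16 (SE), adjusted p = 0.0021, and -0.59 once scaled (adjusted p = 0.012). Mrpl34, the counterpart of one of the smallest bacterial ribosomal proteins, stood at 28.5, 23.4 and 22.1 FPKM in the 2-month libraries, 24.1, 26.4 and 23.8 in the 10-month ones and 10.5, 16.9 and 15.8 in the 20-month ones (gene at chr16:19874034-19874768, plus strand). Its 20-month libraries lay below all 6 others, with replicate 1 the lowest. The change was -0.76 ± 0.16 (SE), adjusted p = 0.0021, and it ranged from -0.88 to -0.56 when single libraries were left out. Mrpl36, a zinc-binding protein that joins the large subunit late in assembly, stood at 12.6, 11.5 and 10.98 FPKM in the 2-month libraries, 10.6, 9.33 and 9.62 in the 10-month ones and 7.01, 8.06 and 5.396 in the 20-month ones. The ages did not overlap and fell in order. The change was -0.71 ± 0.12 (SE), adjusted p = 0.00053, and -0.51 once scaled (adjusted p = 0.004).

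**Figure D2:**
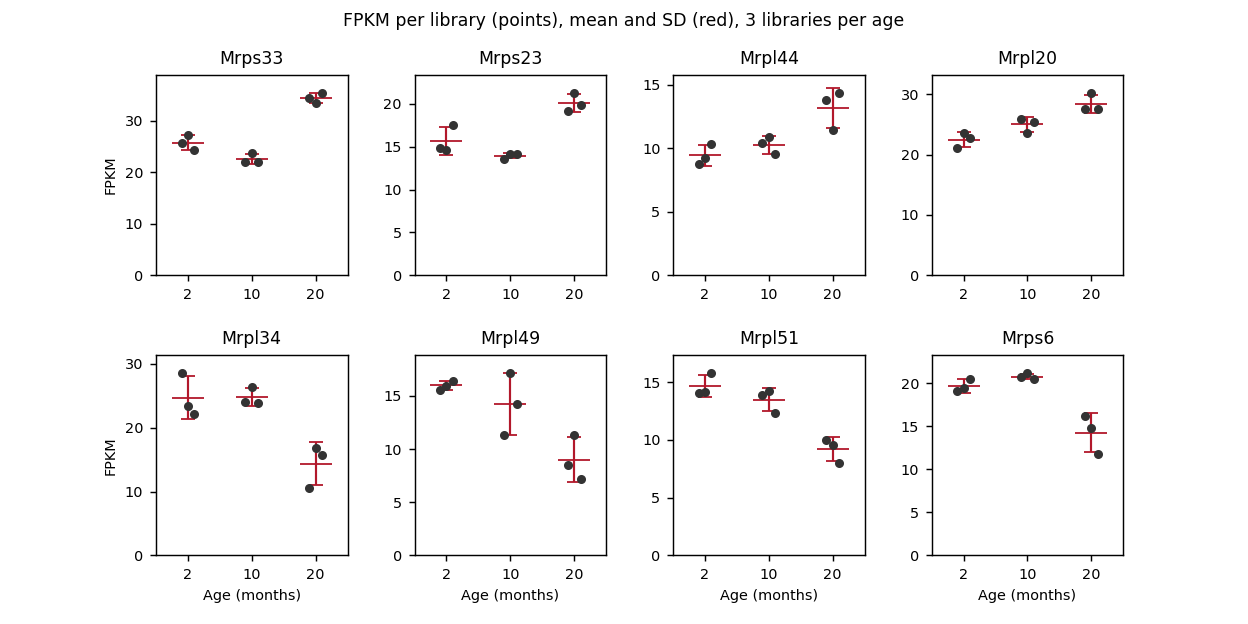
FPKM (y axis, from 0) of 8 mitoribosomal genes in each library by age in months (x axis); points are libraries and red marks the mean and SD of 3. In Mrps33, Mrps23, Mrpl44 and Mrpl20 the 20-month libraries were the highest, and in Mrpl34, Mrpl49, Mrpl51 and Mrps6 the lowest; the 8 genes were picked by hand among those called at 20 months under both scalings.

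In the small subunit the largest rise by log2 change was that of Mrps22, a protein without a bacterial counterpart. By the ratio of the means Mrps28, at 3.25 FPKM at 2 and 4.94 at 20 months, rose slightly more (1.52 times against 1.51). Mrps22, variants of which are known to cause mitochondrial disease in humans, stood at 6.79, 6.905 and 4.88 FPKM in the 2-month libraries, 8.36, 9.95 and 8.24 in the 10-month ones and 10.4, 8.12 and 9.44 in the 20-month ones. The 2-month libraries were the 3 lowest, and the 10- and 20-month libraries overlapped. Its change was 0.53 ± 0.13 (SE), adjusted p = 0.0057. Mrps33 stood at 25.6, 27.2 and 24.4 FPKM in the 2-month libraries, 21.95, 23.8 and 22.04 in the 10-month ones and 34.5, 33.4 and 35.3 in the 20-month ones (gene at chr4:67607273-67610710, minus strand), with a coverage of 95.42 to 173.3 reads per base. The 3 ages did not overlap, the 20-month libraries being the highest and the 10-month ones the lowest. The change at 20 against 2 months was 0.41 ± 0.05 (SE), adjusted p = 9.0e-05, and 0.62 once scaled (adjusted p = 8.3e-06). Mrps31 stood at 8.85, 8.72 and 7.57 FPKM in the 2-month libraries, 10.6, 11.1 and 9.72 in the 10-month ones and 11.03, 11.4 and 11.1 in the 20-month ones, lowest at 2 months, and its change was 0.38 ± 0.07 (SE), adjusted p = 0.00082.

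Of the small-subunit genes that fell, Mrps6, the counterpart of a protein on the platform of the bacterial small subunit, stood at 19.04, 19.4 and 20.5 FPKM in the 2-month libraries, 20.7, 21.1 and 20.5 in the 10-month ones and 16.1, 14.8 and 11.8 in the 20-month ones. The 20-month libraries lay below all others and spread more widely. The change was -0.45 ± 0.09 (SE), adjusted p = 0.0022. Mrps11, another platform protein, stood at 10.9, 11.1 and 10.4 FPKM in the 2-month libraries, 10.03, 9.54 and 11.03 in the 10-month ones and 8.93, 6.75 and 7.5 in the 20-month ones, and its change was -0.44 ± 0.09 (SE), adjusted p = 0.0019. Its head-to-head neighbour Mrpl46 stood at 6.35, 6.85 and 7.31 FPKM in the 2-month libraries, 7.203, 7.86 and 7.82 in the 10-month ones and 7.28, 7.32 and 7.65 in the 20-month ones and was not called (0.11 ± 0.06 (SE), adjusted p = 0.14), though it was called higher after scaling, with 0.30 (adjusted p = 0.0023). Mrps12, the counterpart of a protein at the decoding site, stood at 12.8, 11.9 and 11.5 FPKM in the 2-month libraries, 8.64, 11.3 and 11.6 in the 10-month ones and 9.703, 8.399 and 5.58 in the 20-month ones. The lowest 2-month and the highest 20-month library were apart, but 20-month replicate 3 was far below the other 2. Its change of -0.58 ± 0.17 (SE), adjusted p = 0.013 was not called after scaling, with -0.39 (adjusted p = 0.07).

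At 20 against 10 months the falls were the more numerous. As deposited 9 members rose and 24 fell (44.6%), against 64.7% of all genes, with 11.4% up and 53.3% down. The large subunit had 3 up and 16 down with a median of -0.09, the small subunit 6 up and 8 down with a median of -0.02, and all genes a median of -0.23. After scaling 33 rose and 5 fell, against 25.9% and 26.6% of all genes (52.5% in all), and the medians were 0.14 in the large and 0.21 in the small subunit. The FPKM ranges of the 2 ages were separate for 39 of 74 members, against 67.9% of all genes. Without 20-month replicate 3, 12 members rose and 20 fell. This comparison and the one against 2 months share the 20-month libraries. Under both versions 9 genes rose, which were Mrpl17, Mrpl20, Mrpl44, Mrps9, Mrps14, Mrps23, Mrps28, Mrps33 and Mrps35, and 5 fell, which were Mrpl4, Mrpl34, Mrpl42, Mrpl51 and Mrps6. The share of all genes called under both was not counted.

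Mrps33 had the largest rise, at 0.59 ± 0.05 (SE), adjusted p = 1.7e-05. Mrps23 followed, a small-subunit protein without a bacterial counterpart, which stood at 14.8, 14.7 and 17.5 FPKM in the 2-month libraries, 13.6, 14.1 and 14.2 in the 10-month ones and 19.2, 21.3 and 19.9 in the 20-month ones. Its 10-month libraries were tightly grouped below the others and its 20-month libraries were the highest. The change was 0.50 ± 0.07 (SE), adjusted p = 0.00023. Mrps14, the counterpart of a protein in the head of the bacterial small subunit, stood at 5.71, 6.26 and 5.71 FPKM in the 2-month libraries, 6.25, 5.75 and 5.72 in the 10-month ones and 8.27, 6.92 and 6.78 in the 20-month ones, and changed by 0.27 ± 0.08 (SE), adjusted p = 0.013. Mrpl17, with the values given above, changed by 0.20 ± 0.05 (SE), adjusted p = 0.0065, and Mrpl44 by 0.33 ± 0.09 (SE), adjusted p = 0.011. The smallest of the named rises was that of Mrpl20, at 0.18 ± 0.06 (SE), adjusted p = 0.022. Leaving out 10-month replicate 2 ended this call, at an adjusted p of 0.0842, and so did leaving out 20-month replicate 2, at 0.0717.

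The largest falls at 20 against 10 months were in Mrpl34, at -0.77 ± 0.16 (SE), adjusted p = 0.0022, and in Mrpl49, at -0.61 ± 0.16 (SE), adjusted p = 0.0089. That of Mrpl49 was not called after scaling, with -0.38 (adjusted p = 0.081). Mrpl51, without a bacterial counterpart, stood at 14.04, 14.2 and 15.8 FPKM in the 2-month libraries, 13.9, 14.2 and 12.4 in the 10-month ones and 9.96, 9.598 and 8.02 in the 20-month ones. Its 20-month libraries lay below all others. Its change was -0.51 ± 0.09 (SE), adjusted p = 0.0007, and -0.28 once scaled (adjusted p = 0.02). In the small subunit Mrps6 changed by -0.52 ± 0.09 (SE), adjusted p = 0.001. Mrps27, a protein with pentatricopeptide repeats that bind RNA, stood at 7.07, 5.98 and 6.16 FPKM in the 2-month libraries, 7.53, 6.78 and 6.76 in the 10-month ones and 4.87, 4.54 and 5.68 in the 20-month ones. It changed by -0.41 ± 0.09 (SE), adjusted p = 0.0025, and Mrps11 by -0.37 ± 0.09 (SE), adjusted p = 0.0058. Neither was called after scaling, with -0.19 (adjusted p = 0.091) and -0.13 (adjusted p = 0.21).

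Between 2 and 10 months, where all libraries had the same inferred read length, few members changed. Of 74, 10 rose and 3 fell (17.6%), against 30.3% of all genes, 19% up and 11.4% down. In the large subunit 4 rose and 2 fell (median 0.02), and in the small subunit 6 rose and 1 fell (median 0.05), beside a median of 0.04 over all genes. After scaling 6 rose and 6 fell, against 15.2% and 14.5% of all genes (29.7% in all). The libraries did not overlap for 29 members, against 53.8% of all genes. The counts rested on single libraries: no member fell without 2-month replicate 1, 1 fell without 2-month replicate 2 or any 1 of the 10-month libraries, and 5 fell without 20-month replicate 1 or 3. Without 2-month replicate 3 or 10-month replicate 1, 4 rose, and without 10-month replicate 2, 5 did. Under both scalings Mrpl52, Mrps18b, Mrps22, Mrps25, Mrps30 and Mrps31 rose and Mrpl14, Mrpl57 and Mrps33 fell, and the matching share of all genes was not counted.

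The smallest adjusted p of the members was that of Mrps18b, which stood at 15.1, 15.6 and 14.5 FPKM in the 2-month libraries, 18.3, 19.4 and 18.7 in the 10-month ones and 17.8, 16.6 and 16.1 in the 20-month ones. The 10-month libraries were the highest and the 20-month ones lay between. It rose by 0.30 ± 0.05 (SE), adjusted p = 0.0018. Mrpl52, without a bacterial counterpart, stood at 44.6, 43.9 and 47.4 FPKM in the 2-month libraries, 57.4, 56.8 and 54.7 in the 10-month ones and 52.9, 47.9 and 42.8 in the 20-month ones. The 10-month libraries were again the highest, the 20-month ones overlapping with those of 2 months, and the change was 0.31 ± 0.07 (SE), adjusted p = 0.0094. Mrps31 changed by 0.29 ± 0.07 (SE), adjusted p = 0.011. None of these 3 lost its call when a single library was left out.

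The other named changes from 2 to 10 months were less firm. Mrps22 rose by 0.46 ± 0.13 (SE), adjusted p = 0.027, and the call was lost without 2-month replicate 3 or 10-month replicate 1 or 2 (adjusted p = 0.0538 to 0.0931). Mrps33 changed by -0.18 ± 0.05 (SE), adjusted p = 0.026, lost without 2-month replicate 1 or 2 or 10-month replicate 1 or 3 (adjusted p = 0.068 to 0.0948). Mrpl47, the counterpart of a protein at the tunnel exit, stood at 4.31, 4.74 and 3.67 FPKM in the 2-month libraries, 5.203, 5.42 and 5.62 in the 10-month ones and 3.99, 4.699 and 4.79 in the 20-month ones, and changed by 0.30 ± 0.09 (SE), adjusted p = 0.034, lost without 2-month replicate 1 or 3 or any 1 of the 10-month libraries (adjusted p = 0.0657 to 0.107). Mrpl23, also at the tunnel exit, stood at 25.5, 24.1 and 25.04 FPKM in the 2-month libraries, 28.7, 29.2 and 26.7 in the 10-month ones and 29.8, 30.2 and 27.04 in the 20-month ones. Its change of 0.17 ± 0.05 (SE), adjusted p = 0.038 was lost without any 1 of the 2-month libraries or 10-month replicate 1 or 2 (adjusted p = 0.0657 to 0.125). Neither Mrpl47 nor Mrpl23 was called after scaling, with 0.26 (adjusted p = 0.061) and 0.13 (adjusted p = 0.079). Mrpl14, on the face that meets the small subunit, stood at 9.59, 9.15 and 10.4 FPKM in the 2-month libraries, 7.63, 7.81 and 8.37 in the 10-month ones and 9.25, 9.47 and 8.103 in the 20-month ones. Its change of -0.26 ± 0.07 (SE), adjusted p = 0.021 was lost without 2-month replicate 1 or 3 or 10-month replicate 1 or 2 (adjusted p = 0.0545 to 0.0778). Mrpl57 stood at 5.68, 5.96 and 5.02 FPKM in the 2-month libraries, 4.88, 4.26 and 4.36 in the 10-month ones and 3.64, 4.04 and 3.56 in the 20-month ones, with a change of -0.25 ± 0.08 (SE), adjusted p = 0.036, lost without 2-month replicate 1 or 2 or 10-month replicate 2 or 3 (adjusted p = 0.103 to 0.125).

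Over the 3 ages together, limma's moderated F test called 39 of 74 members, 22 of the large and 17 of the small subunit, against 75.4% of all genes. The members that were not called include genes with wide spread within an age. Mrpl53, a protein without a bacterial counterpart, stood at 13.9, 13.2 and 15.2 FPKM in the 2-month libraries, 13.5, 14.03 and 24.5 in the 10-month ones and 15.8, 15.4 and 16.6 in the 20-month ones, its 10-month replicate 3 standing apart. Mrpl1, part of the movable stalk near the exit site for transfer RNA, stood at 3.803, 3.53 and 1.31 FPKM in the 2-month libraries, 2.78, 1.64 and 2.12 in the 10-month ones and 1.89, 4.59 and 2.68 in the 20-month ones, with a spread at 2 and 20 months as wide as the differences between ages. Mrpl43 varied little, between 21.9 and 24.9 FPKM, with all 10-month libraries below all others. Its change at 20 against 2 months was 0.01 ± 0.04 (SE), adjusted p = 0.77. After scaling it was called higher at 20 against 2 months, with 0.22 (adjusted p = 0.0011), and at 20 against 10 months, with 0.34 (adjusted p = 0.00016).

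**Figure D3:**
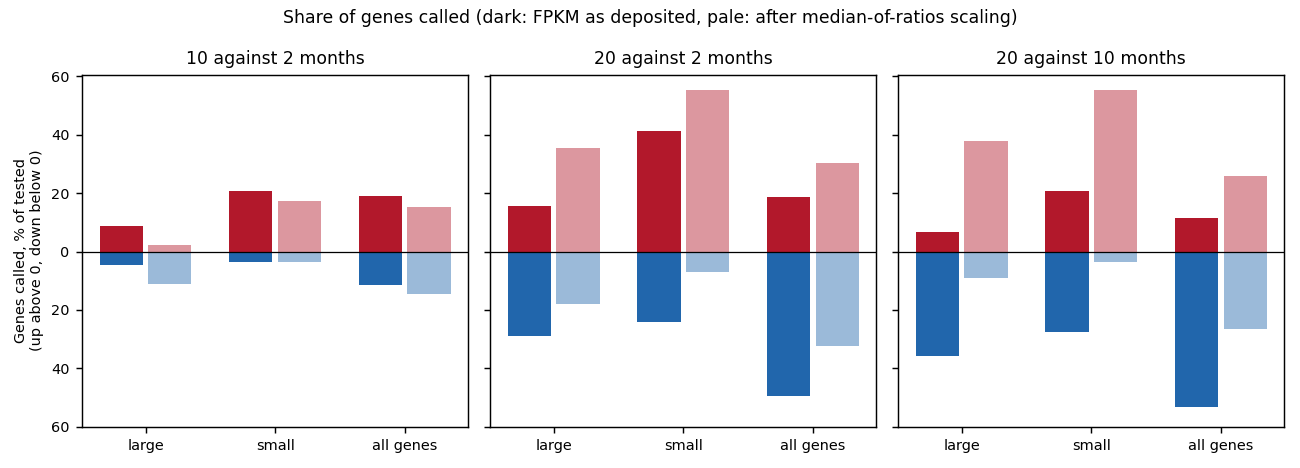
Percent of tested genes called higher (red, above 0) or lower (blue, below 0) in each comparison, for the large subunit (45 genes), the small subunit (29) and all genes (11708); dark bars are FPKM as deposited and pale bars after median-of-ratios scaling. At 20 months the scaling moves calls from lower to higher in all 3 sets, to 35.6% up in the large and 55.2% up in the small subunit against 30.4% of all genes at 20 against 2 months.

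As deposited, the summed level of each subunit moved little. Both sums follow the gene symbols. The small one thus includes Mrps18a and Mrps30, which are placed in the large subunit, and Mrps36, which is placed in neither. The sums were not worked out by place in the ribosome or after median-of-ratios scaling. With that scaling the median log2 change at 20 against 2 months was 0.12 in the large and 0.20 in the small subunit. The large-subunit genes summed to 818.7 ± 11.8 (SD, n = 3) FPKM in the youngest rats, 840.8 ± 6.46 at 10 months and 800.9 ± 19.5 at 20 months. The small-subunit genes summed to 398.7 ± 1.2, 410.0 ± 5.97 and 412.3 ± 8.53 FPKM. Together they took 0.2728%, 0.2769% and 0.268% of all FPKM. The ratio of the large to the small sum, which no scaling of a whole library can change, was 2.053 ± 0.033 at 2 months, 2.051 ± 0.0188 at 10 months and 1.943 ± 0.0136 at 20 months. The 20-month libraries lay between 1.932 and 1.958 and all other libraries between 2.02 and 2.086, so the groups did not overlap. The ratio was looked at after values of the data were known, and it is given without a test.

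**Figure D4:**
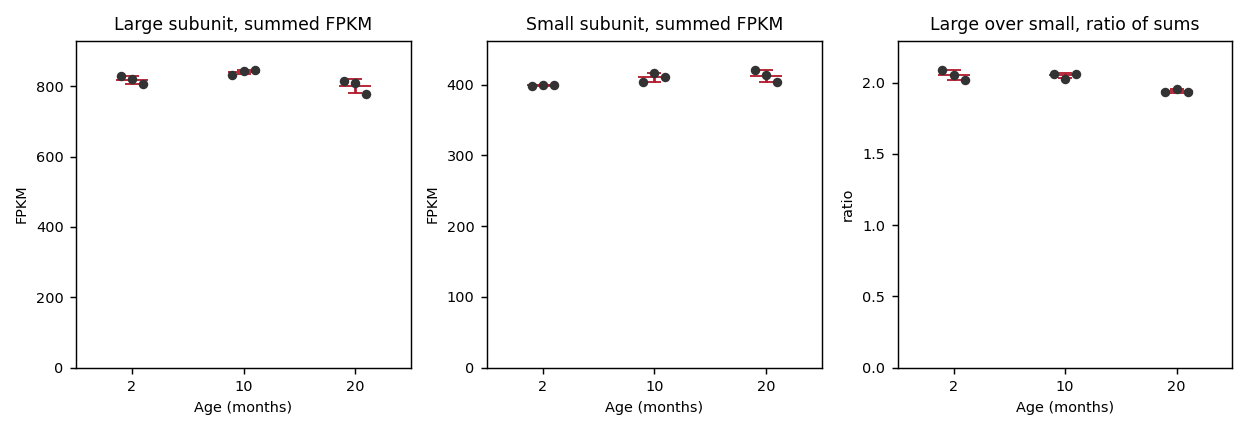
Summed FPKM of the 45 Mrpl genes and of the 29 Mrps genes, and their ratio (y axes from 0), in each library by age in months. Points are libraries and red marks the mean and SD of 3. The sums, of FPKM as deposited, stay within 778.5 to 845.2 and 397.5 to 419.9, and the ratio is lower in all 3 libraries of 20 months.

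The genes were also divided by textbook origin. Of 44 with a bacterial counterpart, 10 rose and 10 fell at 20 against 2 months, with a median of -0.05. Of 29 without, 9 rose and 10 fell, with a median of 0.05, beside 18.6% up and 49.6% down over all genes. After scaling these were 17 up and 5 down (median 0.13) and 15 up and 5 down (median 0.25), beside 30.4% and 32.2% of all genes. The division was not tested. Mrps36 stands outside it, since its product is now known as a part of the 2-oxoglutarate dehydrogenase complex and not of the ribosome, and it was not called in any comparison as deposited (5.66, 6.19 and 4.91 FPKM in the 2-month libraries, 4.63, 5.23 and 4.79 in the 10-month ones and 5.11, 4.87 and 4.64 in the 20-month ones). After scaling it was called higher at 20 against 10 months, with 0.21 (adjusted p = 0.044).

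The 3 members of the S18 family, Mrps18a, Mrps18b and Mrps18c, occupy different places in the mitoribosome, Mrps18a in the large and the other 2 in the small subunit. They differed in level and in change. Mrps18c was the highest, with 26.7, 27.6 and 28.9 FPKM in the 2-month libraries, 27.5, 27.8 and 28.7 in the 10-month ones and 24.6, 29.05 and 29.1 in the 20-month ones, and its ages overlapped throughout. Mrps18a stood at 16.8, 18.1 and 19.2 FPKM in the 2-month libraries, 16.4, 19.1 and 20.8 in the 10-month ones and 16.6, 16.7 and 16.8 in the 20-month ones, also with overlap, its 10-month libraries being the most spread. Only Mrps18b of the 3 was called as deposited, in all 3 comparisons, at 0.30 ± 0.05 (SE), adjusted p = 0.0018 at 10 against 2 months, at 0.15 ± 0.05 (SE), adjusted p = 0.019 at 20 against 2 months and at -0.15 ± 0.05 (SE), adjusted p = 0.021 at 20 against 10 months. After scaling the last of these was not called, with 0.09 (adjusted p = 0.11), and Mrps18c was called higher at 20 against 2 months, with 0.20 (adjusted p = 0.033), and at 20 against 10 months, with 0.22 (adjusted p = 0.025).

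Isoform use did not pass the test in any member. For each isoform, limma was run on log2 of its own FPKM over the FPKM of all other isoforms of the gene, after adding 0.5 to numerator and denominator. It covered 14 isoforms of 8 members, of which 0 were called by the moderated F test, against 8.57% of 2765 isoforms. Of the 14, 4 had an unadjusted pairwise p under 0.05, and the smallest adjusted p was 0.15, in Mrps14. The other members had 1 isoform, too low a level or 1 dominant isoform.

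Subunits that do not carry an Mrp symbol were counted from a separate list. Of 6 tested, among them Mrpl58, which is also a member, 3 rose and 1 fell at 20 against 2 months. The shares over all genes were 18.6% up and 49.6% down. Aurkaip1, a small-subunit protein, was at 31.4 ± 0.49, 36.8 ± 1.3 and 47.7 ± 3.6 FPKM (SD, n = 3) at the ages of 2, 10 and 20 months, and rose by 0.58 ± 0.05 (SE), adjusted p = 1.5e-05. Ptcd3, a pentatricopeptide repeat protein of the small subunit, was at 7.71 ± 0.24, 10.6 ± 0.75 and 10.2 ± 0.5 FPKM (SD, n = 3) at the ages of 2, 10 and 20 months, and rose by 0.36 ± 0.06 (SE), adjusted p = 0.0006. Chchd1 was at 39.2 ± 1.9, 34.2 ± 1.8 and 28.5 ± 2.2 FPKM (SD, n = 3) at the ages of 2, 10 and 20 months, and its change was -0.45 ± 0.06 (SE), adjusted p = 0.00022. The third riser was Dap3, a GTP-binding protein of the small subunit head, at 0.25 ± 0.07 (SE), adjusted p = 0.0083. At 10 against 2 months 3 rose and 1 fell, and at 20 against 10 months 1 rose and 1 fell. Among all genes 19% rose and 11.4% fell in the former and 11.4% and 53.3% in the latter. After scaling 2 rose and 1 fell at 10 against 2 months, beside 15.2% and 14.5% of all genes. At 20 against 2 months 5 rose and 1 fell, beside 30.4% and 32.2%. At 20 against 10 months 5 rose and none fell, beside 25.9% and 26.6%.

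The factors that build the mitoribosome changed in both directions. Of 25 assembly factors, 3 rose and 10 fell at 20 against 2 months (6 and 6 after scaling). This made 52% called (48% after scaling), against 68.2% (62.6%) of all genes, with 18.6% up and 49.6% down (30.4% and 32.2%). At 10 against 2 months 2 rose and none fell, beside 19% and 11.4% of all genes. At 20 against 10 months 2 rose and 9 fell (3 and 4 after scaling), beside 11.4% and 53.3% of all genes (25.9% and 26.6%). C1qbp, a matrix protein needed for mitochondrial translation, was at 62.5 ± 0.8, 73.7 ± 1.1 and 87.7 ± 2.5 FPKM (SD, n = 3) at the ages of 2, 10 and 20 months, and its change at 20 against 2 months was 0.48 ± 0.03 (SE), adjusted p = 1.7e-06. Mtg2, a GTPase that acts on the large subunit, was at 5.66 ± 0.5, 5.504 ± 0.16 and 3.08 ± 0.26 FPKM (SD, n = 3) at the ages of 2, 10 and 20 months, with a change of -0.71 ± 0.07 (SE), adjusted p = 2.9e-05. Noa1, a GTPase needed for small-subunit assembly, was at 2.43 ± 0.33, 2.52 ± 0.019 and 1.03 ± 0.16 FPKM (SD, n = 3) at the ages of 2, 10 and 20 months, with a change of -0.76 ± 0.09 (SE), adjusted p = 8.0e-05. Mrm1, which methylates the large ribosomal RNA, had the smallest adjusted p at 20 against 10 months, at -0.77 ± 0.08 (SE), adjusted p = 5.5e-05.

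Of 15 translation factors, 3 rose and 6 fell at 20 against 2 months (5 and 3 after scaling). Among all genes 18.6% rose and 49.6% fell (30.4% and 32.2% after scaling). Mtif2, the initiation factor that brings the first transfer RNA, was at 3.48 ± 0.18, 5.34 ± 0.3 and 7.83 ± 0.4 FPKM (SD, n = 3) at the ages of 2, 10 and 20 months, with changes of 0.50 ± 0.06 (SE), adjusted p = 0.00046 at 10 against 2 months and 0.98 ± 0.06 (SE), adjusted p = 1.4e-06 at 20 against 2 months. Mrrf, which recycles ribosomes after termination, was at 13.9 ± 0.86, 11.9 ± 0.55 and 8.52 ± 0.65 FPKM (SD, n = 3) at the ages of 2, 10 and 20 months, with a change of -0.64 ± 0.07 (SE), adjusted p = 2.8e-05. Mtfmt, which formylates the initiator transfer RNA, was at 6.35 ± 0.47, 7.01 ± 0.48 and 4.21 ± 0.28 FPKM (SD, n = 3) at the ages of 2, 10 and 20 months, with a change of -0.50 ± 0.07 (SE), adjusted p = 0.00023. Enzymes that charge mitochondrial transfer RNAs had 20 rows tested (Gatc has 2 rows in the table). Of these, 1 rose and 13 fell (3 and 8 after scaling), with a median of -0.29, or -0.12 after scaling. This made 70% called, or 55% after scaling, against 68.2% and 62.6% of all genes. The medians of all genes were -0.20 and -0.01. Vars2, for valine, was at 5.92 ± 0.18, 5.79 ± 0.7 and 3.59 ± 0.13 FPKM (SD, n = 3) at the ages of 2, 10 and 20 months, with a change of -0.59 ± 0.08 (SE), adjusted p = 0.00011. At 10 against 2 months 1 of these enzymes rose and 1 fell, beside 19% up and 11.4% down over all genes.

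Genes for the copying of mitochondrial DNA and its transcription, 13 in number, rose in 5 and fell in 5 at 20 against 2 months (6 and 3 after scaling). In this comparison 18.6% of all genes rose and 49.6% fell (30.4% and 32.2% after scaling). At 10 against 2 months 19% of all genes rose and 11.4% fell (15.2% and 14.5% after scaling). Polg, the DNA polymerase, changed by -0.49 ± 0.05 (SE), adjusted p = 4.0e-05, and Tfb2m, a transcription initiation factor, by 0.55 ± 0.08 (SE), adjusted p = 0.0002. At 10 against 2 months 6 rose and none fell (3 and none after scaling), with Tfam, which packs and activates mitochondrial DNA, at 21.5 ± 0.37, 25.9 ± 0.82 and 23.3 ± 0.9 FPKM (SD, n = 3) at the ages of 2, 10 and 20 months, changing by 0.26 ± 0.04 (SE), adjusted p = 0.0017. Of 19 genes of protein import, 3 rose and 5 fell at 20 against 2 months, and after scaling 9 rose and 1 fell. Tomm7, a small subunit of the outer membrane translocase, changed by 0.46 ± 0.05 (SE), adjusted p = 6.0e-05.

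Of 9 nuclear regulators tested, 2 rose and 4 fell at 20 against 2 months, and 4 rose and 2 fell after scaling. The shares over all genes were 18.6% up and 49.6% down, and 30.4% and 32.2% after scaling. Those whose letters are shown above did not move alike. Yy1 was at 24.9 ± 0.87, 23.3 ± 0.28 and 17.4 ± 0.24 FPKM (SD, n = 3) at the ages of 2, 10 and 20 months, and changed by -0.50 ± 0.04 (SE), adjusted p = 4.0e-06 at 20 against 2 months. Gabpa, the DNA-binding subunit of the ETS factor GABP, was at 8.37 ± 0.24, 11.03 ± 0.56 and 10.97 ± 0.13 FPKM (SD, n = 3) at the ages of 2, 10 and 20 months, and rose by 0.36 ± 0.05 (SE), adjusted p = 0.0007 at 10 against 2 months and by 0.35 ± 0.05 (SE), adjusted p = 0.00015 at 20 against 2 months. Nrf1 was at 9.56 ± 0.25, 12.1 ± 0.43 and 9.996 ± 0.83 FPKM (SD, n = 3) at the ages of 2, 10 and 20 months, rose by 0.31 ± 0.06 (SE), adjusted p = 0.0051 at 10 against 2 months, and was not called at 20 against 2 months (0.06 ± 0.06 (SE), adjusted p = 0.43), though it was called higher after scaling, with 0.26 (adjusted p = 0.0074). Ppargc1a, a coactivator of mitochondrial genes in muscle and fat, was below 1 FPKM in every library. Whether these levels bear on those of the mitoribosomal genes was not tested.

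The transcripts that the mitoribosome translates moved far more than its own genes. Of 13 mitochondrially encoded transcripts, 12 fell and 1 rose at 20 against 2 months, with a median of -1.96, and 6 rose and none fell at 10 against 2 months. After scaling 12 fell and 1 rose (median -1.74) and 5 rose and none fell. Among all genes 49.6% fell and 18.6% rose at 20 against 2 months as deposited (32.2% and 30.4% after scaling). At 10 against 2 months 19% of all genes rose and 11.4% fell (15.2% and 14.5% after scaling). Mt-co1, a subunit of cytochrome oxidase, was at 540.0 ± 39, 563.4 ± 46 and 52.9 ± 5.5 FPKM (SD, n = 3) at the ages of 2, 10 and 20 months, and changed by -3.33 ± 0.09 (SE), adjusted p = 1.9e-08. Mt-cyb, of complex III, changed by -2.72 ± 0.10 (SE), adjusted p = 7.6e-08, and the riser was Mt-nd3, at 1.05 ± 0.20 (SE), adjusted p = 0.0014. In order of age all genes on the mitochondrial chromosome, the 13 among them, took 0.5268%, 0.619% and 0.09842% of all FPKM.

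**Figure D5:**
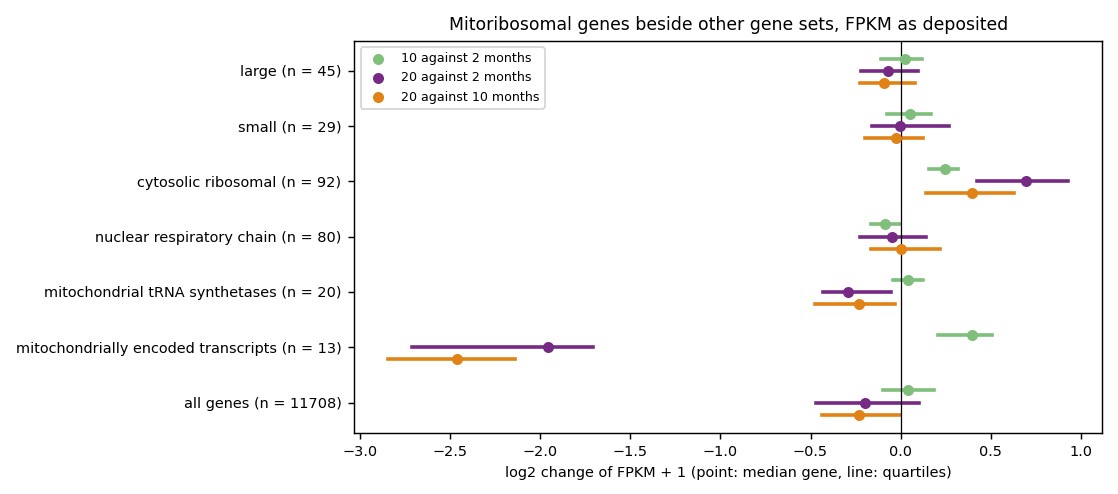
Median log2 change (points) and quartiles (lines) of the genes of each set for the 3 comparisons (x axis, FPKM as deposited). The 2 mitoribosomal sets lie near 0 in all 3 comparisons (-0.09 to 0.05), the cytosolic ribosomal genes at 0.69 and the mitochondrially encoded transcripts at -1.96 at 20 against 2 months.

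The ribosomal proteins of the cytosol, made for the other ribosome of the cell, stood apart from those of the mitoribosome. Of 92 tested, 75 rose and 4 fell at 20 against 2 months, with a median of 0.69, and 59 rose and 1 fell at 10 against 2 months, with a median of 0.25. After scaling these were 81 and 2 (median 0.91) and 56 and 1 (median 0.21). The nuclear genes of the respiratory chain were nearer to the mitoribosomal ones. Of 80 tested, 21 rose and 30 fell at 20 against 2 months (median -0.05), and 45 rose and 14 fell after scaling. At 10 against 2 months 3 rose and 16 fell (median -0.08), and 1 rose and 29 fell after scaling (median -0.12). Among all genes 18.6% rose and 49.6% fell at 20 against 2 months (30.4% and 32.2% after scaling). At 10 against 2 months 19% of all genes rose and 11.4% fell (15.2% and 14.5% after scaling). No test of the difference between the cytosolic or respiratory chain genes and the mitoribosomal genes was made.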

How the data were processed

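RNA abundance was analysed in the 9 input libraries of the 18 libraries in the labels. The authors deposited FPKM per gene, and FPKM with read coverage (a signal that grows with depth) per isoform, per the file headers. Without giving roles, the submitters' processing notes list StringTie 1.3.4d, HISAT2 2.0.4, cutadapt 1.9, edgeR and DESeq2. Genome build, annotation and strand use were each not given in the sources used here. FPKM are not counts, so no count model was used.

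Genes with at least 1 FPKM in at least 3 libraries were fitted by limma (version 3.58.1, run in R 4.3.3, trended empirical Bayes) on log2(FPKM + 1), 3 contrasts over the 3 ages. Isoform use was tested in genes with at least 5 summed FPKM, for isoforms with a share of 10 to 90%. The fits were tested on simulated data, in which part of the smaller changes was missed. The pass mark was set after this was seen, and a gene that was not called may still have changed. Members, lists and tests were chosen with earlier results of these data known.

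Members were named by a rule: the highest of each subunit, per comparison and subunit up to 3 called risers and 3 fallers with the largest change and a mean of at least 5 FPKM in the higher age, and the S18 family. It gave 33 changes of 23 members. From each other list up to 3 called genes with the smallest adjusted p were named, and less telling ones were left out. Mrpl1, Mrpl13, Mrpl33, Mrpl43, Mrpl46, Mrpl53, Mrps10, Mrps36, Mt-nd3 and Ppargc1a were added after their values were seen, as were the genes that spell out counts. Promoter windows came from RefSeq, and no genome of the files' build was used. Alternatives were pseudocounts of 0.1 and 5, other filters, median-of-ratios scaling, quantile normalization, array weights, fits of 2 ages, a replicate block, another placing of subunits and leaving out each library.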

Additional observations from a re-analysis of the deposited data

How the results depend on the processing

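Scaling decided the counts. Against 19 risers and 20 fallers at 20 against 2 months, 9 and 24 at 20 against 10 months and 10 and 3 at 10 against 2 months, median-of-ratios scaling gave 32 and 10, 33 and 5, and 6 and 6, and quantile normalization 31 and 11, 33 and 5, and 6 and 6. In the same order of comparisons the median log2 change was 0.117, 0.1405 and -0.0122 in the large and 0.2006, 0.214 and 0.0167 in the small subunit after median-of-ratios scaling. Quantile normalization gave 0.107 and 0.144 in the large subunit at 20 months, and 0.186, 0.212 and 0.0273 in the small. Both alternatives set the libraries to a common level, whereas the deposited FPKM of the typical gene were lower at 20 months. From 2 to 10 months, 6 members fell with only those 2 ages in the fit and 7 with array weights. A pseudocount of 5 gave a large-subunit median of -0.0634 at 20 against 10 months. A minimum mean of 5 FPKM gave small-subunit medians of 0.0311 at 10 against 2 and 0.0463 at 20 against 2 months. Placing Mrps18a and Mrps30 in the large subunit and leaving out Mrps36 gave 0.0528 in the large at 10 against 2 months and 0.0463 in the small at 20 against 2 months. With that placement and FPKM as deposited, 8 rose and 13 fell of 47 in the large subunit at 20 against 2 months. In the small subunit 11 rose and 7 fell of 26. The cause of the other differences was not tested.

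With single libraries left out, the median of the large subunit ranged from 0.0122 to 0.0495 at 10 against 2 months, from -0.0922 to -0.0359 at 20 against 2 and from -0.128 to -0.0764 at 20 against 10 months, and that of the small subunit from 0.0372 to 0.0572, from -0.00589 to 0.0376 and from -0.0449 to 0.0209. The counts of risers ranged from 4 to 11, from 14 to 20 and from 7 to 12, those of fallers from 0 to 5, from 18 to 22 and from 20 to 24, and the genes called over all ages from 36 to 43. Of the 33 named changes none turned its direction. Median-of-ratios scaling and quantile normalization each ended 6 calls, the filter that kept every gene above 0 FPKM in 1 library ended 4, and the stricter filter removed 2. No isoform was called under any alternative.

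The labels do not state that replicate numbers pair libraries of different ages. Deviations from the age means correlated with r of -0.04 to 0.0491 between the 9 pairs with the same number and of -0.0734 to 0.0628 between the 18 others. Correlations of this kind cannot exclude a shared animal or day. With the replicate block, 17 members rose and 20 fell at 20 against 2 months, 8 and 23 at 20 against 10 months and 8 and 3 at 10 against 2 months. The single named call that ended was that of Mrpl47 at 10 against 2 months (log2 change 0.30, adjusted p = 0.0502 by limma). With 3 libraries an age, low genes such as Mrps10 and Mrpl1 rest on few reads, and a change below the spread of their libraries could not be detected.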

Other observations

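The 6 members whose main isoform has 1 or 2 exons in the deposited table are Mrpl34, Mrpl36, Mrpl41, Mrpl50, Mrpl57 and Mrps33. At 20 against 2 months 5 of them fell and 1, Mrps33, rose, with a median log2 change of -0.47, while of the 68 members with 3 or more exons 18 rose and 15 fell, with a median of -0.01. Once FPKM were scaled, 4 of the 6 fell and 1 rose (median -0.27), and of the 68 others 31 rose and 6 fell (median 0.20). Over all genes tested with 1 or 2 exons, 24.7% rose and 33.4% fell, with a median of -0.09, and of those with more exons 17.5% rose and 52.6% fell, with a median of -0.21. Scaled, these shares were 33.3% and 23% (median 0.08) and 29.9% and 33.8% (median -0.02). The split was chosen after values were seen and was not tested. Across the 74 members the change at 20 against 2 months had a Pearson's r of 0.11 with the log2 length of the main isoform and of 0.19 with its number of exons (Spearman's rho 0.05 and 0.18), against -0.16 and -0.05 (rho -0.15 and -0.08) across all 11708 genes. These 4 relations are descriptions across genes, which share libraries and are not independent replicates.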
